A study of Mus musculus with 19 samples.

Results

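The data described here are the array signals of 8 named genes of the imprinted Dlk1-Dio3 domain on mouse chromosome 12 in liver: the long noncoding RNAs Meg3, Rian and Mirg, the small nucleolar RNAs AF357425, AF357355 and DQ267102, and the protein-coding genes Dlk1 and Rtl1. They were taken as every probe set of the deposited table that the platform annotation pairs with one of these names, which gave 18 of 41345 probe sets. Of the 18, 6 carry a single gene symbol and 12 carry several, so each probe set is called by all its symbols and its value is not assigned to 1 of them. The 8 genes had been picked from their log2 values across the groups of this study. Their group differences are therefore given as descriptions with no test. In the RefSeq gene table (GRCm38.p6) the stretch from Dlk1 to Dio3 holds 103 genes, of which 61 are microRNA (miRNA), 19 small nucleolar RNA (snoRNA), 16 long noncoding RNA and 3 protein-coding genes, with 4 pseudogenes. The array has 71 probe sets annotated to them, 18 of the named genes and 53 of the others.

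Imprinted genes are transcribed mainly from the chromosome inherited from 1 parent. In this domain Meg3, Rian and Mirg are made from the maternal chromosome in 1 direction. So are the snoRNAs and most of the miRNAs that lie within or between them. Dlk1, Rtl1 and Dio3 are made from the paternal chromosome. A methylated control region upstream of Meg3 sets which side is active. The domain is highly active in the embryo and placenta, Dlk1 marks fetal hepatoblasts, and the level of these RNAs in liver drops after birth.

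Whole-liver RNA of 19 mice, each 2 to 3 months old, was read on 1 single-colour Affymetrix array per sample. Feeding lasted 4 weeks, with the diet labelled either normal (ND) or high-fat (HFD). The series concerns Kcp, the Kielin/chordin-like protein, a secreted modulator of BMP and TGF-beta signalling, and sets all genotypes and diets against each other. The groups are WT ND, WT HFD, KO ND, KO HFD and TG ND with 3 arrays each, and TG HFD with 4. The labels give the genotypes only as WT, KO and TG and do not state the deleted part, the promoter of a transgene, strain, sex or litter. Replicates were taken as separate animals from the differing animal numbers in the sample titles alone, so the errors given measure the spread between these samples. The titles also carry a running number that follows the groups, with WT ND first, and animal numbers of a different style on each diet. Array order, cohort and group cannot be told apart.

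Kcp itself stood at 5.56 ± 0.19 (SD, n = 3) in TG ND and 5.66 ± 0.13 (SD, n = 4) in TG HFD on the log2 scale, against 2.55 ± 0.23 in WT ND (SD, n = 3). In KO ND it was 2.03 ± 0.34 (SD, n = 3), a difference from WT ND that did not pass (limma adjusted p = 0.215), and the position of its probes is not known here. Hepatocyte markers averaged 10.51 to 10.61 by group. Array medians lay between 0.983 and 1.07, and 64.4% of probe sets had a mean below 2, the level taken here as dim. The arrays least like the rest were WT HFD replicate 1 and TG HFD replicate 2.

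The start of Meg3 and of Rian are printed first, because probe sets of both genes were high on the WT ND arrays. Each window runs from 250 bases before to 50 bases after a RefSeq start site, on the plus strand of GRCm38.p6. Capitals mark TGACGTCA, the cyclic AMP response element, and a string of the core promoter box, TATATAA, with its reverse complement TTATATA. Both were searched on both strands.
Meg3 promoter, chr12:109540746-109541045: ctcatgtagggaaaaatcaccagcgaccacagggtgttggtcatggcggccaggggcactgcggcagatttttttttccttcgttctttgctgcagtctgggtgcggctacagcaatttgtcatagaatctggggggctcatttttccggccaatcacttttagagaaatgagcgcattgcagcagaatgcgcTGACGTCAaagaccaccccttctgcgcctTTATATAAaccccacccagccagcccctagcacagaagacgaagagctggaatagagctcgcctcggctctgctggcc
Rian promoter, chr12:109603695-109603994: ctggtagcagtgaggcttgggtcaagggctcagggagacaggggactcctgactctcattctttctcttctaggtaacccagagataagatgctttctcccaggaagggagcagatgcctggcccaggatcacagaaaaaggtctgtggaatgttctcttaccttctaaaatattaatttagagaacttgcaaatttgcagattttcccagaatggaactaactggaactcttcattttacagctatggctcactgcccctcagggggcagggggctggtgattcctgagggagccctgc

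In the Meg3 window the response element begins at position -57 from the start site. The marked stretch TTATATAA, in which TATATAA overlaps with its reverse complement, begins at -28. The Rian window holds neither string. TGACGTCA occurs in 588 of 32851 RefSeq promoter windows of this length (1.79%) and TATATAA on either strand in 1065 (3.24%). The GC content was 53.7% for Meg3 and 49.3% for Rian, against a median of 52.7% over all windows, and the Meg3 window has 13 CpG pairs where the Rian window has 0. These matches describe the letters only. RefSeq windows were found for 4 of the 8 genes, Dlk1, Meg3, Rian and Mirg, and Meg3 has 2.

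Several probe sets share their name with a miRNA, and these mature miRNAs are printed with the seed, bases 2 to 8, in capitals. miR-770 and miR-1906 belong to Meg3 probe sets, miR-341, miR-1188 and miR-370 lie within Rian, and miR-134, miR-485 and miR-410 belong to Mirg probe sets. The sequences are those of RefSeq.
mmu-miR-770-5p: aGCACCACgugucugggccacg
mmu-miR-770-3p: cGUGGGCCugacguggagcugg
mmu-miR-1906: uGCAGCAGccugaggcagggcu
mmu-miR-341-5p: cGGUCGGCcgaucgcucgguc
mmu-miR-1188-5p: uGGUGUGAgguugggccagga
mmu-miR-370-3p: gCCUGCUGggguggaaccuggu
mmu-miR-134-5p: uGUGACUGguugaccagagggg
mmu-miR-485-3p: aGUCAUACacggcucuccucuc
mmu-miR-410-3p: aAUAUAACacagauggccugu

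All 9 have different seeds. Over the domain, 113 mature miRNAs of 61 genes carry 104 seeds, of which 10 are shared by more than 1 gene. An example is the seed AUGUAAC, which miR-379 and miR-411 have in common.
mmu-miR-379-3p: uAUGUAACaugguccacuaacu
mmu-miR-411-3p: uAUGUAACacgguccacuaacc

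By group mean, the probe sets of Rian, of its named snoRNAs and 2 of the 3 of Meg3 read higher in WT ND livers than in any other group, and those of Mirg did not follow this pattern. All 7 probe sets named for Rian, for its snoRNAs or for Meg3 together with a miRNA had a mean log2 value of at least 2 in WT ND, and 1 of the 18 probe sets (Meg3/Mir1906-1/Mir1906-2) had such a mean in another group. The remaining 11 probe sets, those of Dlk1, Rtl1 and Mirg and 1 of Meg3, stayed between -0.04 and 1.92 on all 19 arrays. Signals of different probe sets are not amounts of RNA relative to each other, since probes differ in brightness. No detection call was used, and most groups outside WT ND read below the dim level, so differences there are given on the log2 scale of the signals and not as folds of RNA.

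**Figure D1:**
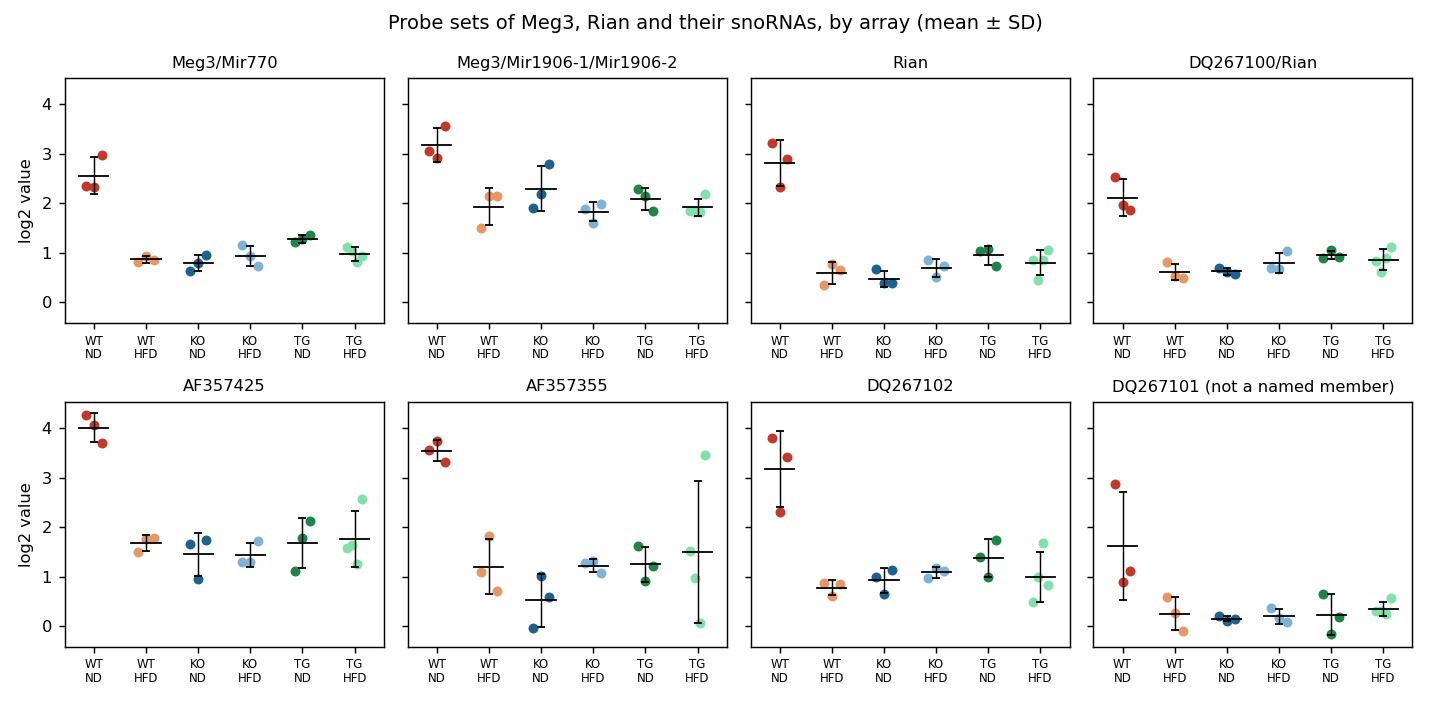
Log2 value of each array (points) in the 6 groups, with the group mean (line) and SD (bar), for the 7 probe sets that were bright in WT ND and for DQ267101, another snoRNA within Rian. WT ND points lie above the points of the other groups in every panel except AF357355, where TG HFD replicate 4 stands at 3.45.

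Meg3, a long noncoding RNA known as a growth suppressor, has 3 probe sets. The Meg3/Mir770 probe set read 2.35, 2.33 and 2.99 in WT ND. It read 0.81, 0.94 and 0.86 in WT HFD, 0.63, 0.79 and 0.96 in KO ND and 1.15, 0.94 and 0.74 in KO HFD. In TG it read 1.21, 1.27 and 1.37 on ND and 1.11, 1.05, 0.81 and 0.95 on HFD. The 3 WT ND arrays were above all 16 others. The WT ND mean was 2.55 ± 0.37 (SD, n = 3). From it WT HFD differed by -1.68, KO ND by -1.76 and TG ND by -1.27 (log2, SE 0.16 each).

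The probe set shared by Meg3, Mir1906-1 and Mir1906-2, the last a copy of the miRNA that RefSeq places outside the domain, was highest in WT ND, and its mean was also above 2 in KO ND and TG ND. Its WT ND arrays read 3.05, 2.92 and 3.56, and the other 16 ran from 1.50 to 2.79 with a median of 1.94. The arrays did not overlap, and KO ND replicate 3, at 2.79, came closest to WT ND. Group means outside WT ND went from 1.83 ± 0.19 in KO HFD to 2.30 ± 0.45 in KO ND (SD, n = 3 each). From WT ND, WT HFD differed by -1.24, KO ND by -0.88 and TG ND by -1.09 (log2, SE 0.24 each). The signal of WT ND was 1.84-fold that of KO ND and 2.12-fold that of TG ND. The third Meg3 probe set, the only 1 with that symbol alone, was dim and showed no such pattern. It read 0.57, 0.52 and 0.73 in WT ND, and the other 16 arrays lay between 0.30 and 1.02. Its group means were 0.40 to 0.83, with KO ND highest, and WT ND minus the mean of the other arrays was -0.01.

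Rian, the long noncoding RNA downstream of Meg3 that hosts 11 snoRNA genes and 3 miRNA genes in RefSeq, had group means below the array medians everywhere but in WT ND. Its probe set read 3.23, 2.32 and 2.90 in WT ND. It read 0.34, 0.78 and 0.66 in WT HFD, 0.67, 0.39 and 0.38 in KO ND and 0.86, 0.51 and 0.73 in KO HFD. In TG it read 1.04, 1.07 and 0.74 on ND and 0.85, 0.45, 0.85 and 1.05 on HFD. The lowest WT ND array was 1.25 above the highest array of any other group, TG ND replicate 2. From the WT ND mean of 2.82 ± 0.46 (SD, n = 3), WT HFD differed by -2.23, KO ND by -2.34 and TG ND by -1.87 (log2, SE 0.21 each). The other groups ran, from high to low, TG ND at 0.95, TG HFD at 0.80, KO HFD at 0.70, WT HFD at 0.59 and KO ND at 0.48. No neighbours in that order differed by more than the SD of either group.

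The probe set shared by Rian and the snoRNA DQ267100, which lies inside it, gave 2.54, 1.96 and 1.86 in WT ND. The other 16 arrays ran from 0.50 to 1.12 with a median of 0.75 and did not overlap with these. From the WT ND mean of 2.12 ± 0.37 (SD, n = 3), WT HFD differed by -1.50, KO ND by -1.49 and TG ND by -1.16 (log2, SE 0.17 each). The 5 other group means lay within 0.34 of each other, with a largest SD of 0.21.

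The snoRNAs are short RNAs of the C/D box family, cut from introns of their host transcript. Such RNAs usually guide ribose methylation of ribosomal RNA, but no such target is known for most of those of this domain. The AF357425 probe set read 4.27, 4.06 and 3.70 in WT ND. It read 1.50, 1.75 and 1.78 in WT HFD, 1.67, 0.95 and 1.74 in KO ND and 1.30, 1.30 and 1.71 in KO HFD. In TG it read 1.12, 1.78 and 2.11 on ND and 1.59, 1.65, 1.26 and 2.56 on HFD. No array of another group reached the WT ND range, with TG HFD replicate 4 closest. From the WT ND mean of 4.01 ± 0.29 (SD, n = 3), WT HFD differed by -2.33, KO ND by -2.56 and TG ND by -2.34 (log2, SE 0.31 each).

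DQ267102 followed the same order of WT ND over the rest, with a wider spread. Its WT ND arrays read 3.80, 2.31 and 3.41. The other 16 ran from 0.48 to 1.73 with a median of 0.99, so that the groups did not overlap. Against the WT ND mean of 3.17 ± 0.78 (SD, n = 3), the difference was -2.40 in WT HFD, -2.25 in KO ND and -1.80 in TG ND (log2, SE 0.33 each).

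AF357355 was the exception in that 1 array outside WT ND was as bright. It read 3.56, 3.75 and 3.32 in WT ND, 1.08, 1.82 and 0.71 in WT HFD, -0.05, 1.02 and 0.59 in KO ND and 1.27, 1.31 and 1.07 in KO HFD. In TG it read 1.62, 0.91 and 1.21 on ND and 1.51, 0.97, 0.07 and 3.45 on HFD. TG HFD replicate 4 thus lay inside the WT ND range, and the 4 arrays of that group had an SD of 1.43. Against WT ND the difference was -2.34 in WT HFD, -3.02 in KO ND and -2.29 in TG ND (log2, SE 0.58 each). On TG HFD replicate 4 AF357425 and DQ267100/Rian were also the highest of the 16 arrays outside WT ND, at 2.56 and 1.12. Rian (1.05) and Meg3/Mir1906-1/Mir1906-2 (2.19) were above the medians of the 16 (0.73 and 1.94) there. DQ267102 (0.84) was below its median of 0.99, and Meg3/Mir770 (0.95) was close to its median of 0.94.

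Mirg, the noncoding RNA at the far end of the domain that hosts 10 miRNA genes in RefSeq, did not share this pattern. Its 3 probe sets, shared with Mir134, with Mir485 and with Mir369, Mir410 and Mir412, had group means from 0.15 to 1.40. The brightest, Mir134/Mirg, read 1.26, 0.76 and 1.80 in WT ND. The other 16 arrays spanned 0.56 to 1.92 and enclosed the WT ND values. WT ND minus the mean of the other arrays was 0.13 for Mir134/Mirg, 0.04 for Mir485/Mirg and 0.04 for the Mir369 probe set.

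On the paternal side, Dlk1, a membrane protein of the Notch ligand type that restrains cell differentiation, was dim in all groups. Its probe set read 0.34, 0.40 and 0.56 in WT ND, and the other 16 arrays lay between -0.04 and 0.81, with KO ND replicate 2 highest. Group means ran from 0.29 ± 0.08 in KO HFD to 0.63 ± 0.26 in KO ND (SD, n = 3 each), and the arrays of all groups overlapped with those of WT ND. Rtl1, a retrotransposon-derived gene needed in the placenta, has 6 probe sets, each shared with at least 1 miRNA. Those miRNAs, apart from Mir3071, come from a transcript antisense to Rtl1, while Mir3071 lies on the opposite strand to them. Which strand each probe set reads is not stated in the annotation used here. Their group means were 0.26 to 1.37, and WT ND minus the mean of the other arrays was between -0.09 and 0.17. The highest single group mean was that of Rtl1/Mir432 in TG HFD, 1.37 ± 0.59 (SD, n = 4), from arrays at 1.38, 0.54, 1.67 and 1.89.

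**Figure D2:**
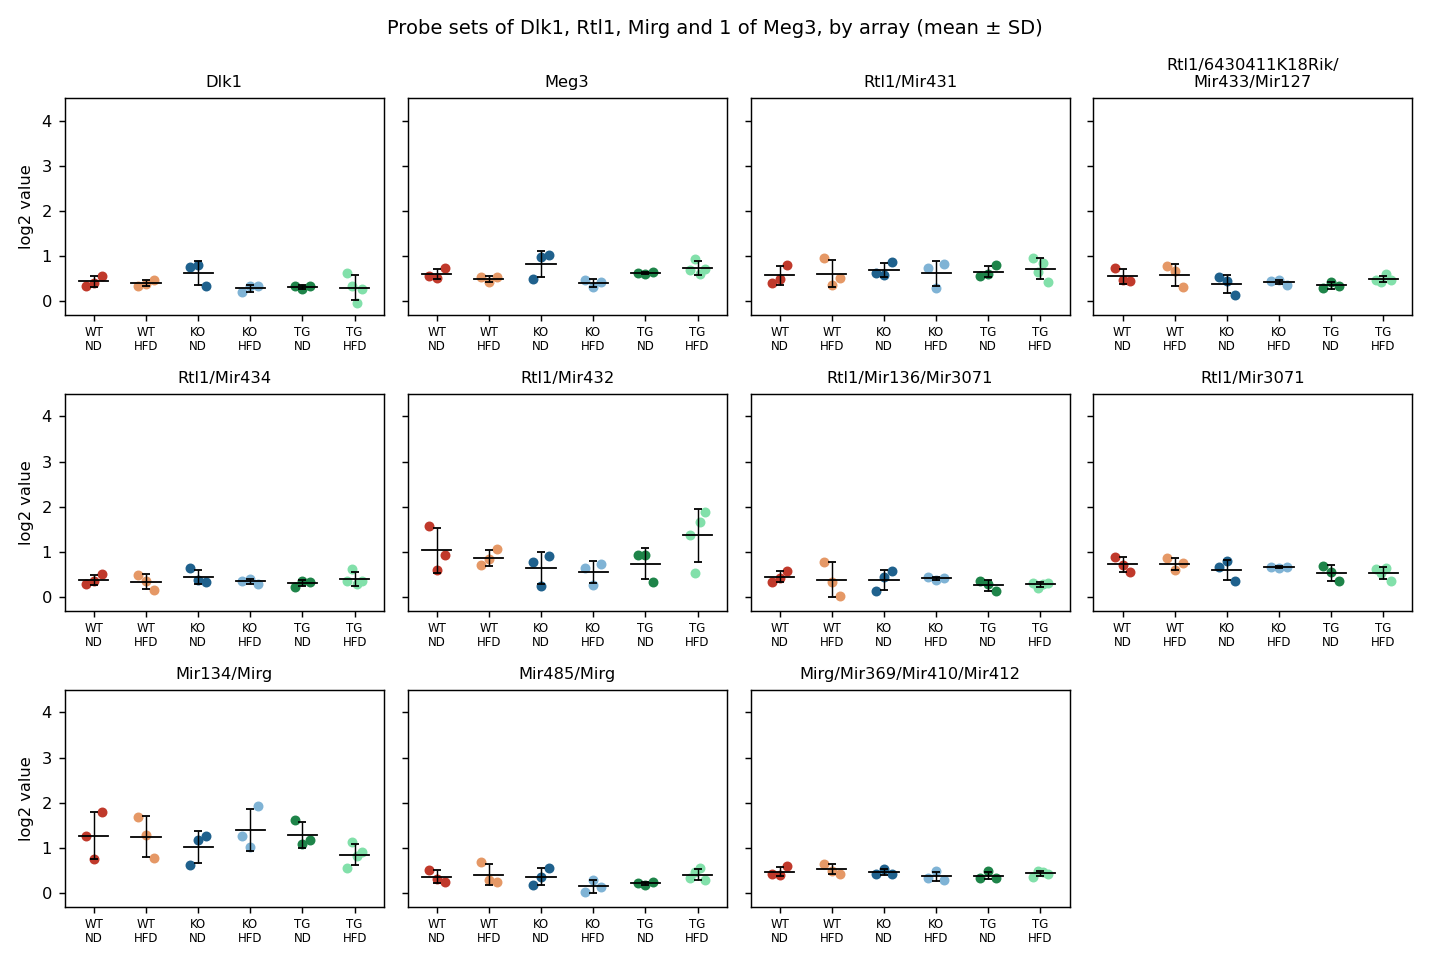
Log2 value of each array (points), group mean (line) and SD (bar) for the 11 probe sets of Dlk1, Rtl1, Mirg and of Meg3 alone, on 1 common axis. Values stay between -0.04 and 1.92, and in each panel the WT ND points lie within or overlap the span of the other 16 arrays. Single groups lie wholly below WT ND in 3 panels, TG ND for Rtl1/6430411K18Rik/Mir433/Mir127, TG HFD for Rtl1/Mir136/Mir3071 and KO HFD for Meg3.

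Read in the order of the genes along the domain, the high probe sets lay in 2 places by their symbols, Meg3 and Rian, with dim Rtl1 probe sets between them. Of the 2 high ones placed at Meg3, 1 is also named for Mir1906-2, outside the domain. The probe set with the Meg3 symbol alone was dim. The 3 WT ND arrays were above all other 16 arrays in 6 of the 18 probe sets of the named genes (all of the 7 bright ones but AF357355) and in 1 of the 53 probe sets of other genes of the domain. Over the whole array this held for 200 of 41345 probe sets (0.484%), and the reverse, all 3 below, for 141. Since the named genes were chosen on these values, the 6 of 18 is a description.

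**Figure D3:**
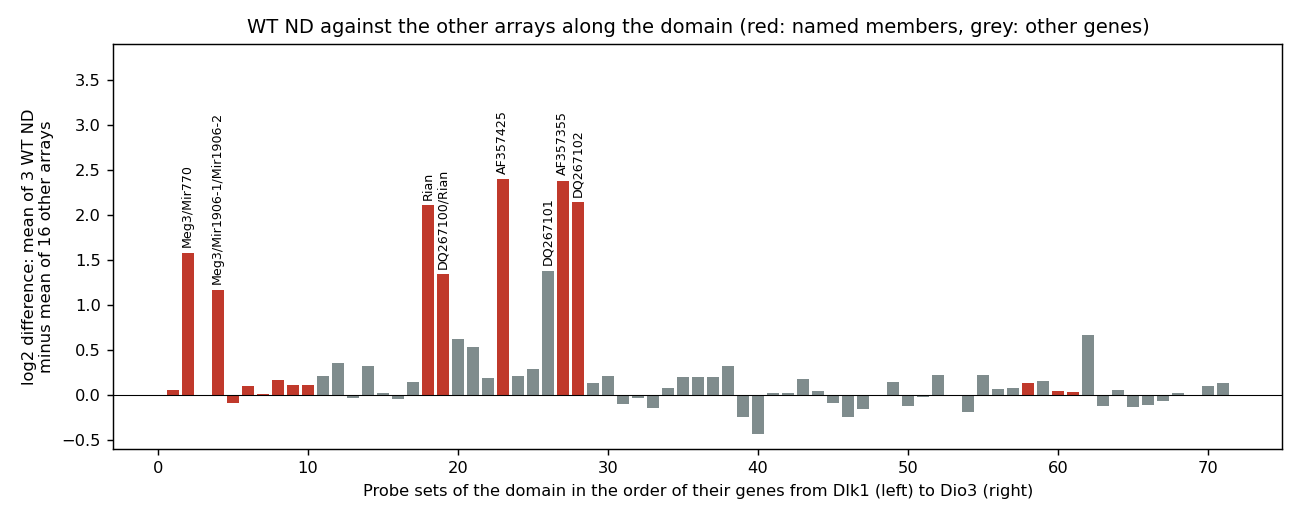
Mean of the 3 WT ND arrays minus the mean of the 16 other arrays (log2) for the 71 probe sets of the domain, in the order of their genes from Dlk1 to Dio3. The bars above 1 are those of Meg3, Rian and the snoRNAs within Rian, while probe sets of Dlk1, Rtl1 and Mirg stay near 0.

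The 1 probe set outside the named genes was of DQ267101, a snoRNA that lies within Rian between DQ267100 and AF357355. It read 2.88, 0.89 and 1.11 in WT ND, and -0.17 to 0.66 on the other arrays. The difference was -1.47 in KO ND (SE 0.35), -1.40 in TG ND and -1.37 in WT HFD. The first passed in the limma fit over 22180 genes with 1 symbol (adjusted p = 0.0253) and the others did not (adjusted p = 0.0578 and 0.067). The KO ND call was lost without KO ND replicate 1, 2 or 3 (highest adjusted p = 0.09), and without WT ND replicate 1 the difference was -0.85. A second DQ267101 probe set was dim, at 0.39, 0.73 and 0.78 in WT ND.

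Of the 95 other genes of the domain 49 had a probe set with their symbol alone. Of these, 1 was lower in KO ND against WT ND, DQ267101, where the fit called 2.98% of all genes. In KO HFD against TG HFD, with 2.35% of all genes called, 1 was lower, Mir667 (-0.74, SE 0.16, adjusted p = 0.0202). Mir667 read 1.32 ± 0.22 in KO HFD (SD, n = 3) and 2.06 ± 0.18 in TG HFD (SD, n = 4), and its call was lost without KO HFD replicate 1 or 2 (highest adjusted p = 0.119). In WT HFD and in TG ND against WT ND 0 of 49 passed in limma, with 6 and 4 at an unadjusted p under 0.05. The median difference of the 49 genes was -0.03 in WT HFD, -0.09 in KO ND and -0.06 in TG ND against WT ND, beside medians over all genes of 0.0040, -0.0019 and -0.0033. Of the miRNAs within Rian, Mir1188 differed by -0.67 in WT HFD and by -0.60 in KO ND against WT ND (limma adjusted p = 0.0945 and 0.0969). The 47 probe sets with a single miRNA symbol ran from -0.43 for Mir494 to 0.66 for Mir453 in WT ND minus the other arrays. The brightest other genes, Mir539, Mir329, Mir667, Mir758 and Mir665, had group means between 1.32 and 2.14. Dio3, the deiodinase gene that ends the domain, was at 0.56 in WT ND and 0.46 to 0.62 in WT HFD, KO ND and TG ND. It was at 0.24 in KO HFD and 0.32 in TG HFD, all dim values.

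Next, the counts called by the limma fit over all 41345 probe sets were set beside the background. An adjusted p under 0.05 (Benjamini-Hochberg within each comparison) counts as called. In WT HFD against WT ND the fit called 0.605% of all probe sets, and 6 of the 18, all lower. In KO ND against WT ND it called 1.4% of all and 6 of the 18, and in TG ND against WT ND 0.624% of all and 6 of the 18, all lower again. The probe set left out among the 7 bright ones was AF357355 in WT HFD and TG ND and Meg3/Mir1906-1/Mir1906-2 in KO ND. These 3 comparisons share the WT ND arrays, and the same values chose the genes, so nothing is read from the counts. The other 11 probe sets differed by -0.39 to 0.22 in them. With only the 6 compared arrays in the fit the count was 1 of 18 in WT HFD and in TG ND.

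In the 6 comparisons without WT ND the fit called 0 of the 18. The shares of all probe sets called were 0.143% for KO HFD and 1.71% for TG HFD against WT HFD, 1.95% for KO ND against TG ND and 1.12% for KO HFD against TG HFD. They were 0.3% for the diet in KO and 0.317% for the diet in TG. At an unadjusted p under 0.05 limma had 0, 0, 2, 2, 2 and 1 of the 18 in that order. The 7 bright probe sets differed by -0.73 to 0.70 there, and the widest values in both directions were of AF357355. Without KO ND replicate 1 the diet comparison in KO called 1 of 18. Meg3/Mir770, Rian and DQ267100/Rian differed by -0.49, -0.47 and -0.33 between KO ND and TG ND (SE 0.16, 0.21 and 0.17). None passed, and although all KO ND arrays were below all TG ND arrays for these 3 of the 18, the same held for 8.61% of all probe sets. Rian differed by 0.10 between KO HFD and WT HFD (SE 0.21) and by 0.21 between TG HFD and WT HFD (SE 0.19).

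**Figure D4:**
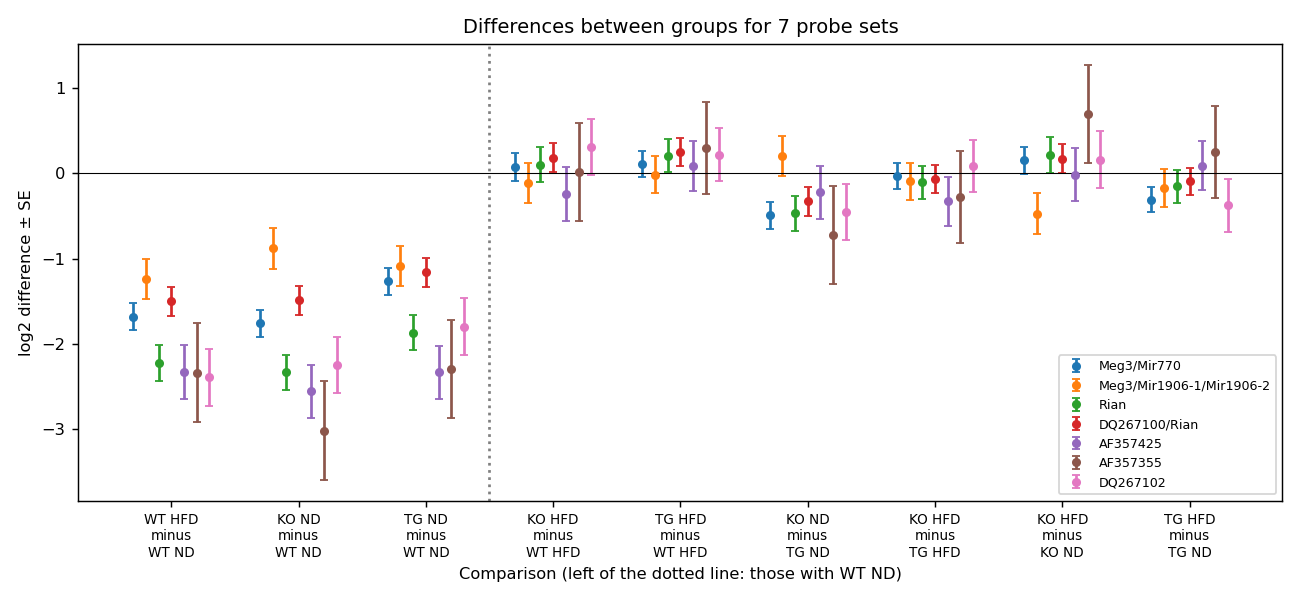
Log2 difference with its SE from the fit over all probe sets, for the 7 bright probe sets in 9 comparisons of groups. The 3 comparisons with WT ND hold values from -3.02 to -0.88, and the 6 others values from -0.73 to 0.70. These 7 were kept for their high mean in WT ND, so this contrast follows from the choice. The 11 other probe sets of the named genes, not shown, differed by -0.39 to 0.22 in the comparisons with WT ND.

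The diet effect in KO and TG was also set against that in WT. For Rian the diet difference was -2.23 in WT, 0.22 in KO and -0.15 in TG, which gives 2.44 (SE 0.29) for KO minus WT and 2.07 (SE 0.29) for TG minus WT. For AF357425 the same quantities were 2.32 (SE 0.44) and 2.42 (SE 0.43), and for Meg3/Mir770 1.83 (SE 0.23) and 1.38 (SE 0.22). The fit called 5 of the 18 as higher for KO and 4 for TG. Over all probe sets it called 0.297% and 0.0943% for these interactions. They use the values that chose the genes, so nothing is read from the counts.

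The 7 bright probe sets varied together between WT ND and the rest and less so otherwise. Pearson's r between pairs of them was 0.61 to 0.95 over the 19 arrays (median 0.83). Over deviations from the group means it was -0.57 to 0.51 (median 0.16), and over the 16 arrays without WT ND -0.30 to 0.64 (median 0.26). The 7 were kept for their mean of at least 2 in WT ND, so the r over 19 arrays follows from that choice. The arrays are also shared by all pairs and the genes lie side by side, so these values describe 1 set of samples.

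Outside the domain, the genes most like Rian over the 19 arrays, among 9156 named genes with a mean of at least 2, were Rps3a1 (r = 0.93), Whamm (0.88), Asic5 (0.87), Srrm2 (0.86) and Lrit1 (0.82). Rps3a1 encodes a ribosomal protein of the small subunit and Srrm2 a component of nuclear speckles. Over deviations from the group means these r were 0.21, 0.72, -0.34, 0.23 and 0.43, so for Rps3a1, Asic5 and Srrm2 the likeness lay mainly in the group means. Over the 16 arrays without WT ND they were 0.29, 0.48, -0.50, 0.45 and 0.39. Each was lower than over the 19 arrays, and that of Asic5 was negative. Rps3a1 stood at 7.51 ± 0.25 in WT ND (SD, n = 3) and between 4.90 and 6.10 on the other arrays. Asic5, an ion channel gene, stood at 7.70 ± 0.21 in WT ND and between 3.66 and 4.99 elsewhere, the widest gap of any probe set. The genes most like the Meg3/Mir1906-1/Mir1906-2 probe set were Asic5 (r = 0.84), Inca1 (0.80), Srrm2 (0.80), Rps3a1 (0.78) and Crybg3 (0.78). For these, r over deviations from the group means was 0.05, 0.67, 0.47, 0.13 and 0.26. Without WT ND it was 0.32, 0.62, 0.33, 0.03 and 0.49. Those most like Mir134/Mirg were Uvssa (0.75), Atp2c1, Zdhhc12, Gast and Zfp825, with r of at least 0.66, and none of these is in the list for Rian or Meg3.

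**Figure D5:**
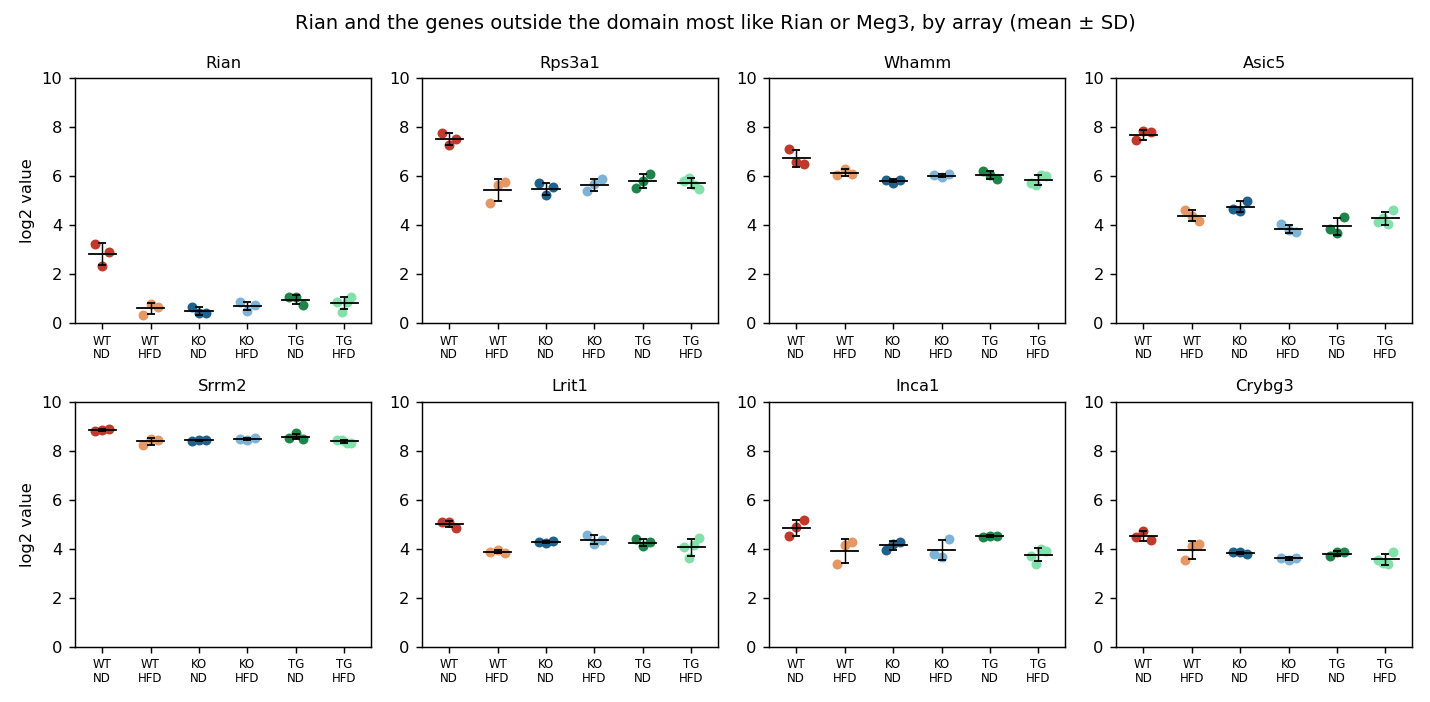
Log2 value of each array (points), group mean (line) and SD (bar) of Rian and of the genes most like Rian or the Meg3/Mir1906-1/Mir1906-2 probe set, on 1 axis from 0 to 10. Rps3a1 lies at 7.27 to 7.76 in WT ND and at 4.90 to 6.10 on all other arrays, while Srrm2 goes only from a range of 8.24 to 8.73 to one of 8.84 to 8.90.

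Of 55 listed genes imprinted at other places, 49 were measured. Against WT ND, 1 was lower in WT HFD, 1 higher and 1 lower in KO ND and 1 higher in TG ND, where the fit called 1.32%, 2.98% and 1.3% of all 22180 genes. Ddc, the aromatic amino acid decarboxylase, fell by 1.61 in WT HFD (SE 0.26, adjusted p = 0.00243) and by 1.27 in KO ND (SE 0.26, adjusted p = 0.0097, lost without KO ND replicate 2 or WT ND replicate 1, highest adjusted p = 0.0689). It also fell by 1.67 from TG ND to TG HFD (SE 0.24, adjusted p = 0.00137). Osbpl5 rose by 1.16 in KO ND (adjusted p = 0.0386, lost without 5 of the 6 arrays, highest adjusted p = 0.167), and decorin, Dcn, rose by 0.60 in TG ND (adjusted p = 0.00935, and 0.0571 without TG ND replicate 3). The median difference of the list was 0.06, -0.04 and 0.08 in these comparisons.

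In the comparisons without WT ND, where the domain genes differed little, the fit called 0.338% of genes for KO HFD and 3.57% for TG HFD against WT HFD. It called 4.2% for KO ND against TG ND and 2.35% for KO HFD against TG HFD. For the diet it called 0.803% in KO and 0.906% in TG. Peg3, a paternally expressed zinc finger gene, fell by 0.98 in TG HFD against WT HFD (SE 0.23, adjusted p = 0.0219) and by 1.27 with the diet in TG (SE 0.23, adjusted p = 0.00962). The first call was lost without WT HFD replicate 3 or TG HFD replicate 2 (highest adjusted p = 0.13, where Peg3 fell by 0.65) and the second without TG ND replicate 1 or 2 (0.0678). Igf2, Cdkn1c, Grb10 and Igf2r did not pass against WT ND in any of the 3 comparisons (adjusted p = 0.554 or higher).

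Among 20 measured regulators of imprints, 1 was lower in WT HFD and 1 higher and 1 lower in KO ND, and 0 of 20 passed in TG ND (limma, 1 at an unadjusted p under 0.05), beside the 1.32%, 2.98% and 1.3% of all genes called in these comparisons. The histone methyltransferase gene Setdb1 fell by 0.58 in WT HFD (SE 0.13, adjusted p = 0.0289) and by 0.59 in KO ND (SE 0.13, adjusted p = 0.0151). These calls were lost without 5 and 4 of the 6 arrays (highest adjusted p = 0.129 and 0.0737). The zinc finger gene Zfp445, which protects imprints, rose by 0.77 in KO ND (SE 0.20, adjusted p = 0.0431), and the call was lost without any 1 of the 6 arrays (highest adjusted p = 0.187). Of the 20 nearest protein-coding genes outside the domain, 1 was higher and 1 lower in KO ND (2.98% of all genes). Cyp46a1, a cholesterol hydroxylase, rose by 1.64 in KO ND (SE 0.33, adjusted p = 0.0087) and Wdr20 fell by 0.76 (SE 0.17, adjusted p = 0.0172, lost without 3 of the 6 arrays, highest adjusted p = 0.0903). In WT HFD and TG ND 0 of the 20 passed (limma, 3 and 5 at an unadjusted p under 0.05). Of 18 genes of Notch signalling, the pathway of Dlk1, 0 passed in the 3 comparisons with WT ND (limma, 2, 2 and 1 at an unadjusted p under 0.05).

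Markers of cell types were read beside the domain genes. In whole tissue, fewer cells of a type and less RNA per cell cannot be told apart. All 12 Kupffer cell markers were higher in TG ND than in WT ND (median 1.52), with Clec4f up by 1.43 (SE 0.18, adjusted p = 0.000263), and the mean level of the list was 4.40 to 4.54 on WT ND arrays and 5.88 to 6.42 on TG ND arrays. In WT HFD and KO ND the list lay at 4.32 to 4.74 and 4.37 to 4.97, with 0 of 12 higher and 1 lower in each against WT ND. It lay at 4.74 to 5.31 in KO HFD and at 5.80 to 6.30 in TG HFD. Of 7 fetal liver markers 0 passed in the 3 comparisons (limma, 1, 0 and 1 at an unadjusted p under 0.05), and their mean level was 1.07 to 1.19 on WT ND arrays and 0.97 to 1.21 on the others. Endothelial markers lay at 5.36 to 5.57 in WT ND and 5.11 to 5.74 elsewhere, with 0 of 12 passing against WT ND (limma, 1, 3 and 3 at an unadjusted p under 0.05). Stellate cell markers lay at 3.97 to 4.20 in WT ND, and 2 of 12 were higher in TG ND. Pancreas, muscle and pituitary marker lists had mean levels of 1.43 or lower on every array, and 0 of their 15 measured genes passed against WT ND (limma, 1, 2 and 0 at an unadjusted p under 0.05, all pituitary). The part of these cell types in the domain's pattern was not tested.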

How the data were processed

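Signals of 19 arrays were used as deposited, on a log2 scale, with 1 value for each probe set. Per the submitters' processing notes affy, RMA and limma were used; versions and the order of steps are not given in the sources used here, and the log2 scale was inferred from RMA and the range of the values. Of 41345 probe sets 23521 have 1 gene symbol, 1814 several and 16010 none in the platform annotation. All group differences come from limma 3.58.1 (R 4.3.3; lmFit and eBayes) with 1 mean per group over all 19 arrays, 9 comparisons and 2 interactions, and Benjamini-Hochberg adjustment within each, called under 0.05. A fit over 22180 genes (for each symbol 1 probe set) served the gene lists, and a fit over all probe sets served the 8 genes described, since most of their probe sets have several symbols. No low values were filtered. The number of arrays limits the precision.

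The 8 genes and the lists were chosen with earlier results of these data known. Named genes were, by rule, all probe sets of the 8 genes; up to 6 called genes per comparison and the 5 brightest among other domain genes; up to 4 called genes per other list; and the 5 genes most correlated with Meg3, Rian and Mirg. The text gives these for the comparisons it describes. The fitting was tested on simulated data. Alternatives tried were a second quantile normalization, median centring, a mean of at least 2, averaging the probe sets of a gene, fitting all probe sets, the compared arrays alone, and leaving out arrays.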

Additional observations from a re-analysis of the deposited data

Results flagged for a closer look

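In the TG HFD group, 1 of 4 arrays stood apart in each of 2 probe sets of the named genes by Dixon's criterion, which marks about 1 in 20 groups by chance. The Meg3/Mir1906-1/Mir1906-2 probe set had its highest array at 2.19, against 1.83 to 1.84 on the others. The Rtl1/Mir136/Mir3071 probe set had its lowest array at 0.211, a dim value.

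AF357355 differed with the diet in opposite directions in WT (-2.34) and KO (0.70, log2, SE 0.58 each), and neither difference was called. The KO HFD and KO ND arrays came as near as 1.07 and 1.02. The diet effect in KO minus that in WT was 3.04 (log2, SE 0.82). The difference did not pass the limma interaction over all probe sets, and it rests on the WT ND values on which the gene was chosen.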

How the results depend on the processing

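The difference of each of the 18 probe sets from WT ND, in each of 3 comparisons, moved by less than 1 SD under median centring and under a second quantile normalization. Leaving out 1 of the 6 compared arrays cannot move a difference by 1 SD when groups hold 3 arrays. That setting therefore shows nothing on this scale. Of the 18, 6 were called in each comparison with WT ND. With a mean log2 of at least 2, which leaves 1 of the 18 in the test, 1 was called in each of the 3. With the compared arrays only, 1 was called in WT HFD and 1 in TG ND. Without 1 array the counts were 5 to 6 (WT HFD), 5 to 7 (KO ND), 4 to 5 (TG ND), 0 to 1 (diet in KO) and 0 in the other 5 comparisons.

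Counts over all genes moved by over 1.5 times under some settings. With all probe sets fitted they were 170 (WT HFD against WT ND, from 293), 427 (KO ND against WT ND, from 661), 182 (TG ND against WT ND, from 289), 42 (KO HFD against WT HFD, from 75), 518 (TG HFD against WT HFD, from 791), 318 (KO HFD against TG HFD, from 522), 77 (diet in KO, from 178) and 107 (diet in TG, from 201). With the compared arrays only they were 139, 37, 248, 156, 62 and 55 (WT HFD against WT ND, KO HFD and TG HFD against WT HFD, KO HFD against TG HFD, diet in KO, diet in TG). With a mean of at least 2 they were 292 and 310 for the diet in KO and TG. Without WT HFD replicate 1 and TG HFD replicate 2 together, an alternative added after seeing the data, they were 186 (WT HFD against WT ND), 297 (TG HFD against WT HFD) and 346 (KO HFD against TG HFD). Without 1 array they were 166 to 295, 353 to 494 and 165 to 226 in WT HFD, KO ND and TG ND against WT ND, 37 to 73 and 401 to 865 in KO HFD and TG HFD against WT HFD, 568 to 783 in KO ND and 271 to 598 in KO HFD against TG on the same diet (the second from 522, the first from 931), and 27 to 159 and 73 to 182 for the diet in KO and TG.

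Of the other domain genes, 1 was called in WT HFD and 1 in TG ND with the mean of a gene's probe sets, and 1 in TG HFD against WT HFD without both doubtful arrays. In KO ND 0 were called with all probe sets fitted, with a mean of at least 2 and with the compared arrays only, and in KO HFD against TG HFD 0 with the last 2. Without 1 array the count was 0 to 1 in 6 comparisons and 0 in KO HFD against WT HFD and for the diet in KO and TG. Of the other imprinted genes, 1 was called in KO ND with all probe sets fitted and with the compared arrays only, 0 in TG ND with the compared arrays, 2 in KO HFD against WT HFD with a mean of at least 2, 0 in TG HFD against WT HFD with all probe sets fitted or the compared arrays, 1 in KO ND against TG ND under those 3 settings, and 1 in KO HFD against TG HFD with the compared arrays. Without 1 array the count was 0 to 2 (KO ND and TG ND against WT ND, KO ND against TG ND), 0 to 1 (KO HFD and TG HFD against WT HFD), 1 to 2 (diet in TG), 1 (WT HFD against WT ND) and 0 (the other 2). The cause was not tested.

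No paired analysis was possible because the labels give no replicate numbers shared between groups. The dim level of most domain probe sets limits what they can show, and the mature or precursor form read by a miRNA probe set is not known here.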

Other observations

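Among all 41345 probe sets, ranked by the gap between the lowest WT ND array and the highest other array, Asic5 came first (2.47) and Cyp2c55, a cytochrome P450 gene, next (2.11). Rian was at rank 4 (1.25), Rps3a1 at 6 (1.17), AF357425 at 7 (1.13), Meg3/Mir770 at 10 (0.959) and DQ267100/Rian at 11 (0.742). The probe sets at ranks 3 (1.33), 5 (1.17) and 8 (1.09) have no symbol. Their probe set numbers lie in or next to the run of the Rian and snoRNA probe sets. Whether they read the domain is not known here, and they are not in the counts of the domain. Of the 200 probe sets with a gap above 0, 54 have no symbol in the annotation used here. At ranks 15 to 20 stood 6 probe sets named for copies of the U1 small nuclear RNA, all with a gap of 0.611, which share their values.

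Lists chosen after seeing the data gave the snoRNAs of other places and their hosts. Of 78 snoRNA genes outside the domain, 2 fell in WT HFD, 3 in KO ND and 1 in TG ND against WT ND, and 0 rose, where 1.32%, 2.98% and 1.3% of all genes were called. The list had medians of -0.24, -0.03 and 0.09. Snord13 fell by 0.95 in WT HFD (limma adjusted p = 0.02, lost without WT HFD replicate 1 or 3 or WT ND replicate 1) and by 1.05 in KO ND (0.00555). Of 9 snoRNA host genes the 1 that changed was Rps3a1, which fell by 2.08 in WT HFD (limma adjusted p = 5.31e-05), by 2.03 in KO ND (2.87e-05) and by 1.71 in TG ND (0.000263). These calls held without any 1 of the 6 arrays. Rps3a1 had already come out as the gene most like Rian over the 19 arrays, through its high WT ND values. Its calls are therefore no separate result about snoRNA hosts. Of 7 spliceosomal RNAs and 5 other nuclear noncoding RNAs 0 passed against WT ND in limma (at an unadjusted p under 0.05, in WT HFD, KO ND and TG ND, 1, 0 and 0 of the 7, and 3, 2 and 1 of the 5). Airn, 1 of the 5, was dim, but its WT ND arrays (0.96 to 1.51) lay above all others (highest 0.79, KO ND). Malat1, Neat1, Kcnq1ot1 and Miat did not show this. For Snord13 the WT ND arrays (8.96 to 9.82) also lay above all others (highest 8.73, WT HFD). The same held for 0.484% of all probe sets.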
